A study of Mus with 15 samples.

Results

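Collagen fibres are built in stages by enzymes that act one after another, and 10 mouse genes for such enzymes are described here: Lox, Loxl1, Loxl2, Loxl3, Loxl4, Plod1, Plod2, Plod3, P4ha1 and P4ha2. They were taken as the rows of the deposited gene matrix with those symbols. Each symbol occurred once, so 10 of 55471 genes were members. All 10 passed the filter on low counts, which left 16051 genes. RNA sequencing was done on 15 adipose tissue samples of wild-type C57BL/6 mice aged 7 weeks in 3 groups of 5, which were fat grafts at day 3, fat grafts at day 7 and control tissue, with no further allele or agent named. The labels give neither the depot nor the recipient site, nor do they tie replicates to separate animals. The p-values thus set group differences only against the spread between these samples, which may be technical.

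Prolyl 4-hydroxylases, whose catalytic alpha subunits are encoded by the P4ha genes, hydroxylate proline in new collagen chains inside the endoplasmic reticulum. The product keeps the triple helix stable at body temperature. Lysyl hydroxylases, encoded by the Plod genes, modify lysine in the same compartment, which sets where sugars attach and which kind of cross-link can form later. Both kinds of hydroxylase need oxygen, iron, 2-oxoglutarate and ascorbate. After secretion, the copper-dependent amine oxidases of the LOX family convert lysine and hydroxylysine into reactive aldehydes that join neighbouring collagen and elastin molecules. In fat tissue this cross-linking is known for its link with fibrosis and stiffness.

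Total estimated counts per library ran between 17109216 and 31997959. Levels are given as CPM, the counts scaled to library size with TMM factors of 0.746 to 1.14, for comparisons of 1 gene between libraries. Mitochondrial genes took 2.35% to 4.02% of counts in day 3 grafts, 2.17% to 2.89% in day 7 grafts and 9.01% to 14.9% in controls. Over all 16051 genes tested, 4832 were higher and 4856 lower in day 3 grafts than in controls, and on the deposited TPM as log2(TPM + 1) these were 6301 and 2967. In day 7 grafts 5170 were higher and 4566 lower, with 7396 and 2585 on TPM. The 8 adipocyte markers, such as adiponectin and perilipin, were detected in every library, and all 8 fell in both graft groups. They summed to 1656 to 6234 CPM in day 3 grafts, 1030 to 2320 CPM in day 7 grafts and 10410 to 33011 CPM in controls. Control 2, control 4, control 5, day 3 graft 1 and day 7 graft 5 stood apart from their groups in an earlier look at these data, and the fits, family shares and gene lists were also run without these 5 libraries. Only controls 1 and 3 are left as controls there. By CPM, controls 4 and 5 were the highest controls for 6 and 4 of the 10 enzyme genes, and control 3 was the lowest for 9. Values without the 5 libraries are given for part of the results only, so a value given alone may also have moved in that fit.

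All 10 enzyme genes rose in day 3 grafts against controls, by log2 fold changes of 1.57 for Plod3 to 4.45 for Lox, and all 10 rose in day 7 grafts against controls, by 1.26 for Plod3 to 4.25 for Lox. The calls are limma-voom tests with Benjamini-Hochberg adjustment over all genes, at an adjusted p below 0.05. The same rule called 30.1% of all genes higher at day 3 and 32.2% at day 7. The median log2 fold change of the 10 genes was 3.31 at day 3 and 3.15 at day 7, against -0.02 and 0.03 for all genes tested. Every day 3 graft lay above every control for 10 of 10 genes, which held for 20.6% of all genes. Every day 7 graft lay above every control for 9 of 10, which held for 22.7%, with Loxl4 as the exception. Between day 7 and day 3 grafts none of the 10 passed the limma test, where 4.88% of all genes did in either direction. Of the 10, 1 (Loxl4) had an unadjusted p below 0.05, as did 20.2% of all genes. Both graft comparisons use the same 5 controls, so their results are not independent of each other.

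**Figure D1:**
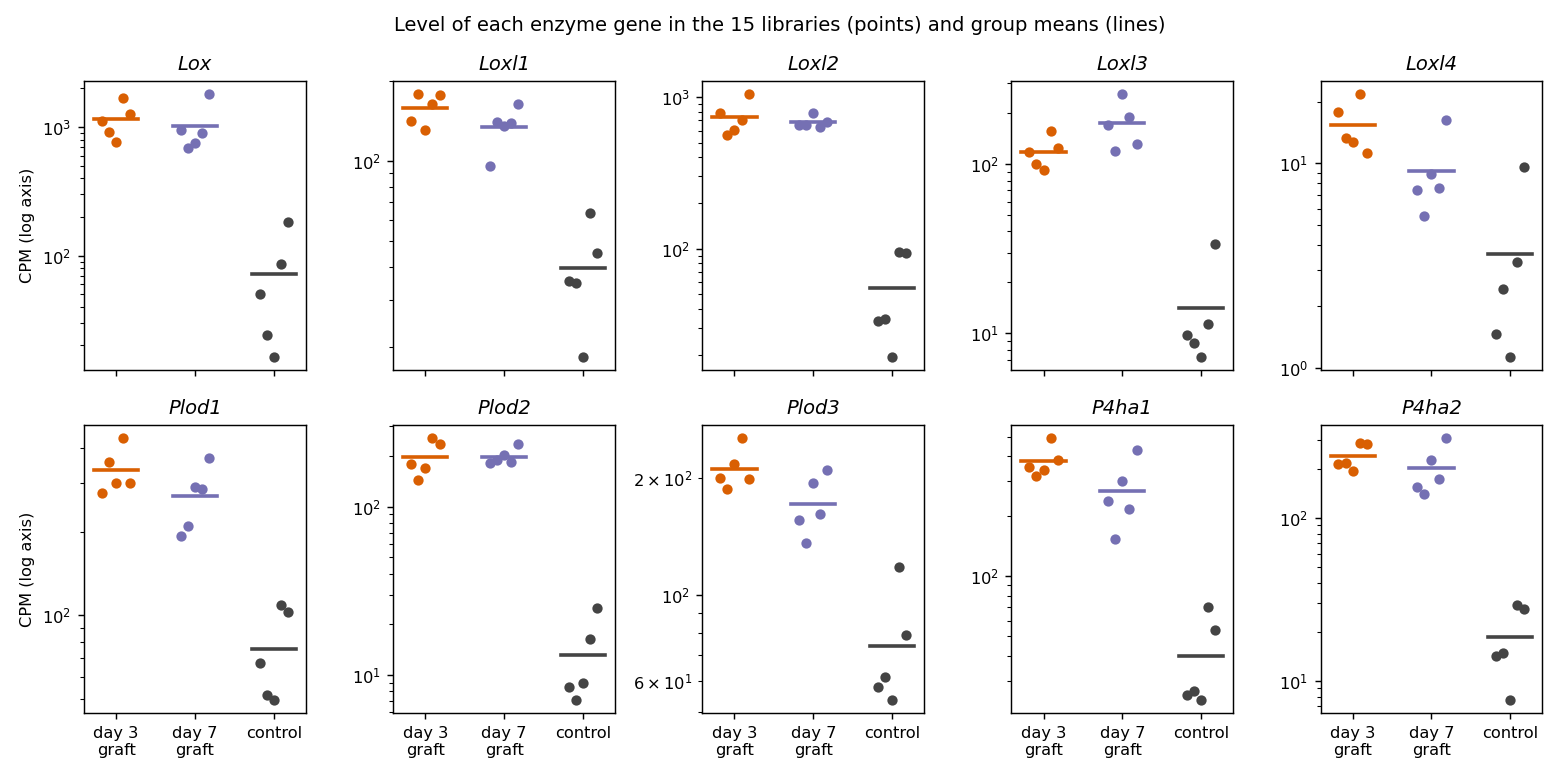
Level of each of the 10 enzyme genes in CPM (log axis, a separate scale for each gene) in the 5 day 3 grafts, 5 day 7 grafts and 5 controls; points are libraries and lines are group means. The graft libraries lie above all controls in every panel except that of Loxl4, where the control at 9.62 CPM is above 4 of the day 7 grafts.

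Lox encodes lysyl oxidase itself, the founding cross-linking enzyme (ENSMUSG00000024529, chromosome 18, 52516067 to 52529867, minus strand, build mm10). Lox in day 3 grafts 1 to 5 read 1113, 925, 762, 1675 and 1269 CPM. Lox in day 7 grafts 1 to 5 read 949, 685, 759, 901 and 1806 CPM. Lox in controls 1 to 5 read 50.3, 24.3, 16.3, 86.3 and 184 CPM. Each graft held several times the level of the highest control, day 7 graft 5 stood well above the other day 7 grafts, and the controls spread widely. The log2 fold change was 4.45 ± 0.58 (SE) at day 3 by limma (adjusted p = 1.65e-05) and 4.25 ± 0.58 at day 7 (adjusted p = 2.15e-05), which placed Lox at rank 152 and rank 195 of 16051 genes by size of increase. Without the 5 libraries named above, which leaves only controls 1 and 3, the day 3 change was larger, at 5.23.

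Loxl2, a paralogue best known for cross-linking the type IV collagen of basement membranes, and in fibrosis, followed Lox (ENSMUSG00000034205, chromosome 14, 69609068 to 69695834, plus strand). Loxl2 in day 3 grafts 1 to 5 read 779, 564, 602, 703 and 1043 CPM. Loxl2 in day 7 grafts 1 to 5 read 656, 653, 786, 633 and 684 CPM. Loxl2 in controls 1 to 5 read 33.4, 34.7, 19.4, 94.6 and 94.4 CPM. The 2 graft groups overlapped almost fully, and day 7 grafts were the more even, with a coefficient of variation of 8.89%, against 25.8% in day 3 grafts and 65.6% in controls. By limma the changes were 3.97 ± 0.40 at day 3 (adjusted p = 1.78e-06) and 3.88 ± 0.40 at day 7 (adjusted p = 1.9e-06), and without the 5 libraries they were 4.75 and 4.68.

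Loxl3, a further paralogue with roles in palate and muscle-tendon development of mice, averaged more in day 7 than in day 3 grafts, unlike most members (ENSMUSG00000000693, chromosome 6, 83034173 to 83052562, plus strand). Loxl3 in day 3 grafts 1 to 5 read 118, 99.7, 91.7, 157 and 124 CPM. Loxl3 in day 7 grafts 1 to 5 read 169.7, 120.1, 259, 190.4 and 132 CPM. Loxl3 in controls 1 to 5 read 9.80, 8.82, 7.28, 11.4 and 33.5 CPM. Day 7 graft 3 was highest, 3 of the day 7 grafts were above every day 3 graft, and control 5 stood above the other controls. Loxl3 rose by 3.27 ± 0.33 at day 3 (adjusted p = 1.76e-06) and by 3.80 ± 0.33 at day 7 (adjusted p = 4.85e-07) in the limma fit. The difference of day 7 grafts to day 3 grafts, 0.53 ± 0.29, did not pass (adjusted p = 0.323; 95% interval -0.08 to 1.14). Loxl3 shares part of its locus with Htra2, a mitochondrial protease gene on the other strand, which changed by 0.23 ± 0.08 at day 3. The strand setting of the counting is not given, so reads of the pair may be mixed.

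Loxl1, which is required for elastic fibre upkeep in mice, rose the least of the LOX family at day 3 (ENSMUSG00000032334, chromosome 9, 58287738 to 58313186, minus strand). Loxl1 in day 3 grafts 1 to 5 measured 142, 179, 131, 164 and 178 CPM. Loxl1 in day 7 grafts 1 to 5 measured 95.6, 141, 135, 139.8 and 164 CPM. Loxl1 in controls 1 to 5 measured 35.3, 34.9, 18.4, 63.9 and 45.1 CPM. All grafts were above all controls, with a narrow spread within each graft group. The limma changes were 2.10 ± 0.26 at day 3 (adjusted p = 9.56e-06) and 1.86 ± 0.26 at day 7 (adjusted p = 2.41e-05). Loxl4, the least abundant member, had 17.8, 13.3, 12.7, 21.8 and 11.3 CPM in day 3 grafts 1 to 5, 7.41, 5.50, 8.91, 7.60 and 16.2 CPM in day 7 grafts 1 to 5, and 1.47, 2.44, 1.13, 3.28 and 9.62 CPM in controls 1 to 5 (ENSMUSG00000025185, chromosome 19, 42593982 to 42612813, minus strand). These rest on 296 to 605 estimated counts in day 3 grafts, 161 to 432 in day 7 grafts and 25 to 203 in controls. Counting error is thus larger for Loxl4 than for the other members, which had at least 122 counts in every library. Day 3 grafts lay above all controls, whereas control 5 exceeded 4 of 5 day 7 grafts. The limma changes of Loxl4 were 2.48 ± 0.45 (adjusted p = 0.000289) and 1.66 ± 0.47 (adjusted p = 0.00694). Without the 5 libraries they were 3.40 and 2.41, and on log2(TPM + 1), a scale that shrinks changes of low genes, the day 3 change was 1.85.

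Among the lysyl hydroxylases, Plod2 rose most; its enzyme acts on the telopeptides at collagen ends and is known for the pyridinoline type of cross-link of fibrotic tissue (ENSMUSG00000032374, chromosome 9, 92542223 to 92608428, plus strand). Plod2 in day 3 grafts 1 to 5 read 178, 145, 169, 256 and 234 CPM. Plod2 in day 7 grafts 1 to 5 read 181, 188, 202, 183 and 234 CPM. Plod2 in controls 1 to 5 read 8.43, 7.08, 8.999, 16.4 and 24.9 CPM. Every graft was far above every control, and control 5 was the highest control. Day 7 grafts were even, with a coefficient of variation of 11.1%, against 23.9% in day 3 grafts. The limma changes, 4.00 ± 0.27 at day 3 (adjusted p = 1.29e-07) and 4.04 ± 0.27 at day 7 (adjusted p = 8.08e-08), differed by 0.04 ± 0.24 (day 7 minus day 3, 95% interval -0.48 to 0.55).

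Plod1, the lysyl hydroxylase of the helical part of collagen (ENSMUSG00000019055, chromosome 4, 147909753 to 147936767, minus strand), changed less. Plod1 in day 3 grafts 1 to 5 stood at 275, 358, 300.1, 437 and 299 CPM. Plod1 in day 7 grafts 1 to 5 stood at 194, 209, 290.2, 286 and 369 CPM. Plod1 in controls 1 to 5 stood at 67.4, 51.8, 49.4, 109 and 102 CPM. Day 3 graft 4 and day 7 graft 5 were the highest of their groups, and both groups lay above the controls. The limma changes were 2.19 ± 0.25 (adjusted p = 4.51e-06) and 1.87 ± 0.24 (adjusted p = 1.45e-05) at days 3 and 7. Plod3, whose enzyme also adds sugars to hydroxylysine, had the smallest rise of all 10 (ENSMUSG00000004846, chromosome 5, 136987019 to 136996648, plus strand). Plod3 in day 3 grafts 1 to 5 stood at 199, 186, 217, 253 and 198 CPM. Plod3 in day 7 grafts 1 to 5 stood at 156, 136, 194, 161 and 209 CPM. Plod3 in controls 1 to 5 stood at 57.9, 61.7, 53.6, 118 and 79.1 CPM. Even so, the lowest graft was above the highest control, which was control 4. Its changes were 1.57 ± 0.20 at day 3 (adjusted p = 1.08e-05) and 1.26 ± 0.19 at day 7 (adjusted p = 6.49e-05, limma). Plod3 overlaps Znhit1, a chromatin remodelling gene on the other strand, which changed by 0.79 ± 0.20 at day 3 (adjusted p = 0.00384) and by 0.35 ± 0.21 at day 7 (adjusted p = 0.161). Reads of these genes may likewise be mixed.

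P4ha1, the main catalytic alpha subunit of prolyl 4-hydroxylase in most cells, rose close to the median member at day 3 (ENSMUSG00000019916, chromosome 10, 59323296 to 59373304, plus strand). P4ha1 in day 3 grafts 1 to 5 read 353, 319, 342, 494 and 381 CPM. P4ha1 in day 7 grafts 1 to 5 read 239, 153, 299, 216 and 429.8 CPM. P4ha1 in controls 1 to 5 read 25.4, 26.6, 23.9, 70.4 and 54.002 CPM. Day 3 grafts were even apart from a high graft 4, and day 7 grafts ran lower on average, with graft 2 lowest and graft 5 highest. The limma changes were 3.35 ± 0.33 at day 3 (adjusted p = 1.29e-06) and 2.79 ± 0.32 at day 7 (adjusted p = 4.62e-06). P4ha2, the alternative alpha subunit that is abundant in cartilage and other connective tissue, rose more (ENSMUSG00000018906, chromosome 11, 54100095 to 54131665, plus strand). P4ha2 in day 3 grafts 1 to 5 read 214, 218, 193, 287 and 284 CPM. P4ha2 in day 7 grafts 1 to 5 read 156, 140.2, 228, 173 and 310.3 CPM. P4ha2 in controls 1 to 5 read 14.2, 14.7, 7.60, 29.04 and 27.8 CPM. Again no graft was within the range of the controls, and day 7 grafts spread more than day 3 grafts. Its limma changes were 3.81 ± 0.32 (adjusted p = 4.76e-07) and 3.52 ± 0.32 (adjusted p = 6.53e-07), and the day 3 change was 4.50 without the 5 libraries.

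**Figure D2:**
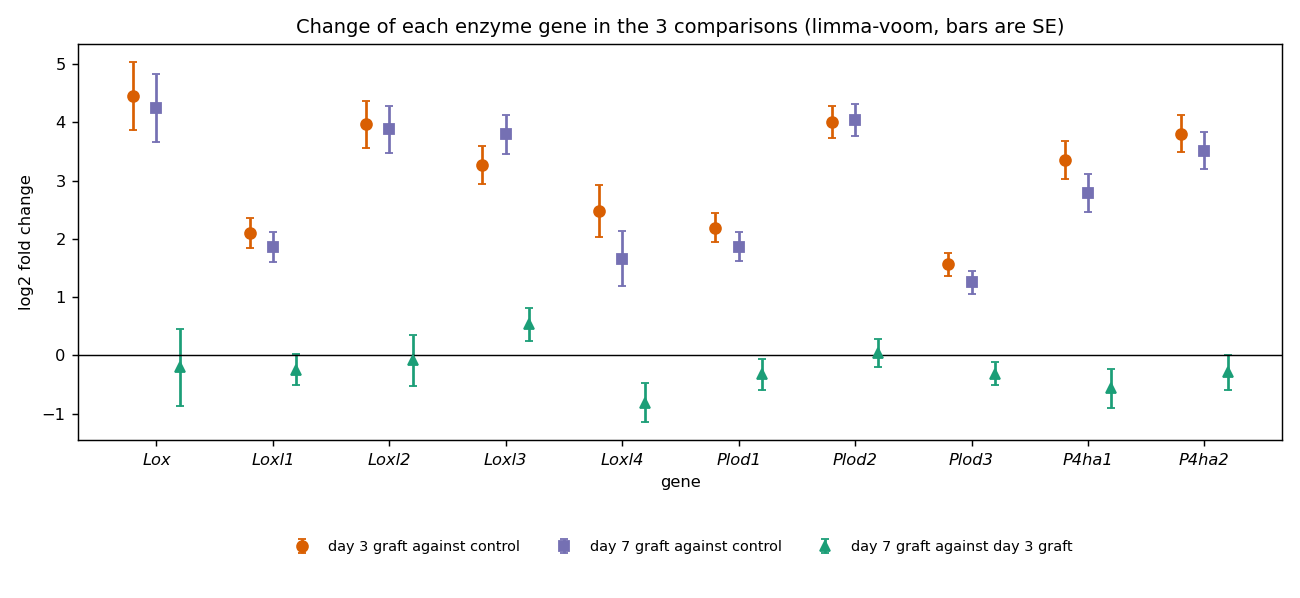
Log2 fold change of each of the 10 enzyme genes from the limma-voom fit (y axis) in day 3 grafts against controls (circles), day 7 grafts against controls (squares) and day 7 grafts against day 3 grafts (triangles); bars are standard errors. Changes against controls run between 1.26 and 4.45, and those of day 7 against day 3 grafts between -0.81 and 0.53.

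The same libraries tended to be high or low for many members at once. Day 3 graft 4 was the highest day 3 graft for 8 of 10 genes, day 7 graft 5 the highest day 7 graft for 8, and control 3 the lowest control for 9. Day 7 graft 2 was the lowest day 7 graft for 6, while controls 4 and 5 were the highest controls for 6 and 4. These ranks are by CPM, with TMM factors of 0.746 in control 4 and 1.137 in control 3, and they differed on TPM. There, control 5 was the highest control for each of the 10 genes, such as Plod3 (58.5 TPM, against 53.2 in control 4). Control 3 was not the lowest there for P4ha1, Plod1 and Loxl3, beside Plod2. Exceptions included Loxl2 and Loxl3, which were highest in day 7 graft 3.

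Comparing day 7 with day 3 grafts, 8 of 10 members had a negative log2 difference, and the median was -0.27, against 0.02 for all genes. Loxl4 averaged 9.13 ± 4.16 CPM in day 7 grafts and 15.4 ± 4.33 CPM in day 3 grafts (SD, n = 5 each), a difference of -0.81 ± 0.33 with a 95% interval of -1.53 to -0.10 (adjusted p = 0.183, limma). P4ha1 averaged 268 ± 105 CPM in day 7 grafts and 378 ± 68.9 CPM in day 3 grafts, a difference of -0.57 ± 0.34 (adjusted p = 0.384; interval -1.29 to 0.16). The intervals were wide enough to hold sizeable changes in either direction for Lox (-1.60 to 1.20) and Loxl2 (-1.03 to 0.86), and narrower for Plod3 (-0.74 to 0.12). The outcome depended on how uneven libraries were treated. With the 5 libraries left out, 3 members fell in day 7 against day 3 grafts by limma, where 8.84% of all genes did: Loxl4 (-0.99, adjusted p = 0.0114), P4ha1 (-0.79, adjusted p = 0.0171) and Plod3 (-0.41, adjusted p = 0.0397). With sample quality weights in the voom fit the same 3 passed, at -0.94 (adjusted p = 0.00976) for Loxl4, -0.71 (adjusted p = 0.0298) for P4ha1 and -0.36 (adjusted p = 0.0486) for Plod3, and Loxl3 rose by 0.65 (adjusted p = 0.045). Over all genes the calls in this comparison numbered 3037 without the 5 libraries and 3668 with quality weights, against 784 in the fit of all 15 libraries.

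Per transcript length, on the deposited TPM scale, the order of the members differed between grafts and controls. In day 3 grafts Lox led with 373 ± 107 TPM (SD, n = 5), followed by Loxl2 at 202 ± 55.9, P4ha1 at 183 ± 28.8 and P4ha2 at 174 ± 29.1 TPM, and each of these overlapped the next. In day 7 grafts Lox led with 348 ± 123 TPM and did not overlap Loxl2 at 199 ± 21.8 TPM. In controls Plod3 led with 44.9 ± 10.2 TPM, then Plod1 with 29.1 ± 8.62 and Lox with 18.8 ± 19.6 TPM, and all neighbours in the order overlapped. Loxl4 was last in every group, at 6.23 ± 1.77 TPM in day 3 grafts, 3.79 ± 1.40 TPM in day 7 grafts and 1.17 ± 1.24 TPM in controls.

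Since all 10 genes rose but by different amounts, the make-up of each enzyme family shifted. The share of a gene in the summed TPM of its family is given here, as a description with no test. The summed LOX family reached 705 ± 155 TPM in day 3 grafts and 705 ± 107 TPM in day 7 grafts, against 50.8 ± 36.1 TPM in controls (SD, n = 5 each). Within it, Loxl1 made up 10.5% ± 2.18 in day 3 grafts and 9.39% ± 1.98 in day 7 grafts, against 32.7% ± 9.97 in controls, with no overlap of grafts and controls. Lox itself made up 52.4% ± 5.37 in day 3 grafts and 48.6% ± 10.03 in day 7 grafts, against 31.9% ± 10.3 in controls. Every day 3 graft was above every control in the Lox share, and day 7 grafts overlapped the controls. Loxl3 made up 7.49% ± 0.625, 12.7% ± 4.83 and 9.76% ± 3.85 in day 3 grafts, day 7 grafts and controls, with overlap throughout. Loxl4 made up 0.898% ± 0.208, 0.525% ± 0.109 and 2.06% ± 0.733, lower in both graft groups than in any control. Loxl2 made up 28.8% ± 4.84, 28.9% ± 5.40 and 23.6% ± 3.78, with overlap throughout. By these means the graft family was led by Lox and then Loxl2. Controls differed among themselves: Lox took 47.1% and Loxl1 16.0% in control 5, but Lox took 21.3% and Loxl1 42.4% in control 2. Without the 5 libraries the control means were 29.7% for Lox and 36.1% for Loxl1.

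The 3 lysyl hydroxylases summed to 391 ± 50.997 TPM in day 3 grafts and 359.5 ± 52.6 TPM in day 7 grafts, against 78.9 ± 21.1 TPM in controls. Plod2 made up 17.6% to 25.9% of that sum in day 3 grafts and 22.2% to 27.9% in day 7 grafts, against 4.17% to 8.69% in controls. Plod3 made up 34.1% to 42.9% in day 3 grafts and 34.5% to 41.6% in day 7 grafts, against 52.5% to 61.4% in controls. Both ranges were apart from the controls, in opposite directions, while the Plod1 share overlapped in all groups. Per TPM of Plod1 there were 0.529 ± 0.117 TPM of Plod2 in day 3 grafts and 0.672 ± 0.123 in day 7 grafts, against 0.160 ± 0.0392 in controls. The prolyl 4-hydroxylase alpha subunits, with P4ha3 added to the members as the remaining gene of the family, summed to 372 ± 57.5 TPM in day 3 grafts and 329 ± 78.04 TPM in day 7 grafts, against 26.4 ± 11.3 TPM in controls. P4ha1 made up 45.6% to 52.5% in day 3 grafts, 34.8% to 45.6% in day 7 grafts and 50.97% to 65.4% in controls. Its share in day 7 grafts was below all controls, and its upper end there met the lower end of day 3 grafts, while day 3 grafts overlapped the controls. P4ha3 made up 4.09% ± 1.33, 12.6% ± 4.72 and 2.94% ± 3.24 in the same order. P4ha2 made up 46.7% ± 2.12, 46.9% ± 3.07 and 40.4% ± 5.04.

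**Figure D3:**
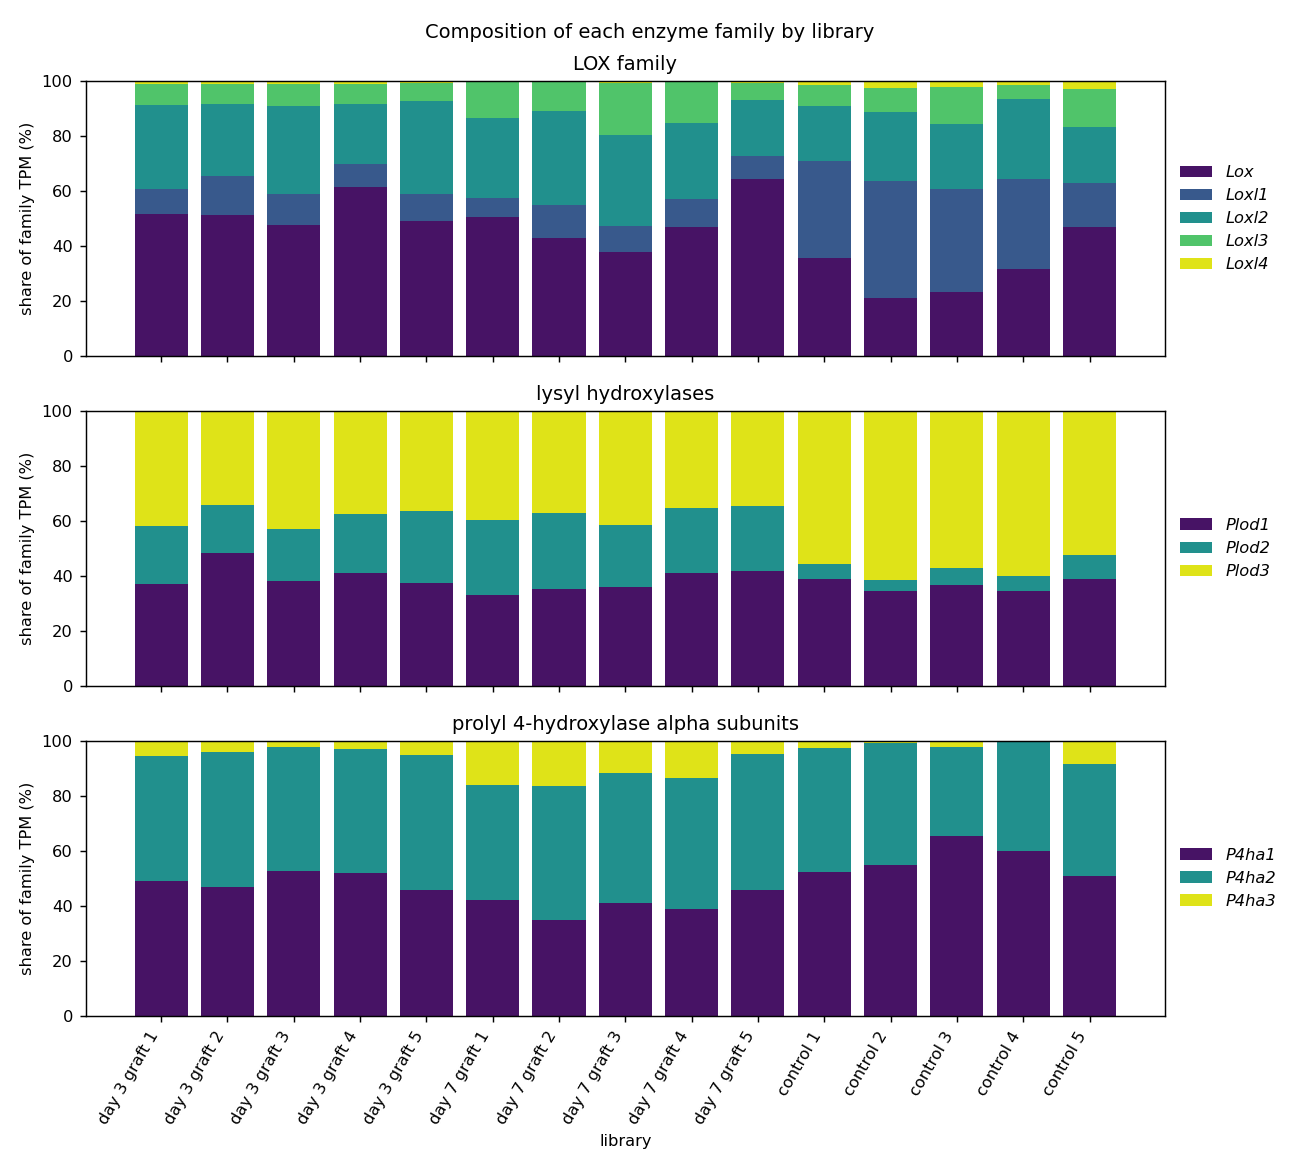
Share (%) of each gene in the summed TPM of its family in the 15 libraries, with LOX genes in the top panel, lysyl hydroxylases in the middle and prolyl 4-hydroxylase alpha subunits at the bottom; bars run from day 3 grafts through day 7 grafts to controls. Loxl1 takes 7.06% to 13.9% in grafts and 16.0% to 42.4% in controls, and Plod2 takes 17.6% to 27.9% in grafts and 4.17% to 8.69% in controls.

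The enzymes act on fibrillar collagens, whose transcripts rose as well. Each member was therefore also measured against the summed CPM of Col1a1, Col1a2 and Col3a1, the main chains of collagens I and III. Col1a1 averaged 4199 ± 954 CPM in day 3 grafts and 5989.7 ± 653 CPM in day 7 grafts, against 389 ± 272 CPM in controls. Its limma changes were 3.68 ± 0.42, adjusted p = 4.64e-06, and 4.22 ± 0.43, adjusted p = 1.62e-06. Col1a2 changed by 3.04 ± 0.38 and 3.85 ± 0.40 and Col3a1 by 3.09 ± 0.43 and 3.44 ± 0.43 at days 3 and 7. At day 3 the ratio to collagen was higher for 4 members and lower for 3 by limma, where 0.685% of all genes were higher and 92.4% lower. The median of all genes on this scale was -3.16. The 4 that rose beyond this sum were Lox (1.31 ± 0.31, adjusted p = 0.000711), Plod2 (0.88 ± 0.29, adjusted p = 0.00888), Loxl2 (0.83 ± 0.25, adjusted p = 0.00406) and P4ha2 (0.68 ± 0.30, adjusted p = 0.0389). Col3a1, at 16425 CPM in day 3 grafts, was the largest part of the sum. The rises of Plod2 (4.00), Loxl2 (3.97) and P4ha2 (3.81) were close to the 3.68 ± 0.42 of Col1a1. The ratio to Col1a1 alone was not tested. The call on P4ha2 was the least secure: it was lost without control 1 (adjusted p = 0.0612), control 4 (0.0552) or control 5 (0.0871). It was also lost without day 3 graft 2, 3, 4 or 5 (adjusted p 0.054, 0.0942, 0.0656 and 0.0547). Without the 5 libraries, an alternative chosen after seeing the data, both P4ha2 (0.77, adjusted p = 0.062) and Plod2 (0.69, adjusted p = 0.12) missed the threshold by limma. Plod3 (-1.58 ± 0.34, adjusted p = 0.000242), Loxl1 (-1.03 ± 0.29, adjusted p = 0.00256) and Plod1 (-0.96 ± 0.31, adjusted p = 0.00696) rose less than collagen. Loxl3 (0.15 ± 0.32), P4ha1 (0.22 ± 0.33) and Loxl4 (-0.66 ± 0.47) did not pass in either direction.

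At day 7 the same limma fit called 0 members higher and 5 lower relative to collagen, and no member with a positive value had an unadjusted p below 0.05. Of all genes 0.43% were higher and 94% lower, with a median of -3.60. The 5 lower ones were Plod3 (-2.39 ± 0.33, adjusted p = 2.02e-06), Loxl4 (-1.96 ± 0.49, adjusted p = 0.000917), Plod1 (-1.78 ± 0.30, adjusted p = 2.16e-05), Loxl1 (-1.78 ± 0.29, adjusted p = 1.15e-05) and P4ha1 (-0.85 ± 0.32, adjusted p = 0.019). P4ha1 no longer passed with Col3a1 alone as the measure of collagen (-0.63, adjusted p = 0.0763), nor without day 7 graft 2 (0.075) or day 7 graft 4 (0.0518). Lox kept a positive value of 0.61 ± 0.31 (adjusted p = 0.0711), which passed with Col3a1 alone (0.82, adjusted p = 0.018), without control 5 (0.75, adjusted p = 0.0188) and without day 7 graft 2 (adjusted p = 0.0441). Without day 7 graft 5, the library with the highest Lox, it was lower, at 0.37 (adjusted p = 0.254), and without the 5 libraries it was 0.51 (adjusted p = 0.132). Against controls, Lox rose by 4.25 at day 7, about as much as Col1a1, and its ratio to Col1a1 alone was not tested. Loxl2 (0.24 ± 0.25), Plod2 (0.41 ± 0.29), Loxl3 (0.18 ± 0.33) and P4ha2 (-0.11 ± 0.30) stayed near the change of collagen without passing. In day 7 against day 3 grafts, 9 of 10 ratios to collagen were negative and 7 had an unadjusted p below 0.05, as did 11.8% of all genes, but 0 passed the adjustment, which 0.891% of all genes did. The median of all genes was -0.47. The most negative were Loxl4 (-1.30 ± 0.34, adjusted p = 0.0892) and P4ha1 (-1.07 ± 0.35, adjusted p = 0.189), with Loxl4 passing without control 5 (adjusted p = 0.0364) or without day 7 graft 5 (adjusted p = 0.0348). Leaving out other single libraries put Loxl4 as high as an adjusted p of 0.322, and Col3a1 alone put it at 0.206. When the 5 libraries were left out, 7 members were lower and 0 higher relative to collagen in day 7 than in day 3 grafts by limma, where 10.6% of all genes were lower and 1.32% higher. They ran from Loxl4 (-1.53, adjusted p = 0.0101) and P4ha1 (-1.35, adjusted p = 0.0094) through Plod1, P4ha2, Lox and Plod3 to Loxl1 (-0.93, adjusted p = 0.012). In TPM, the LOX family held 8.43 ± 1.41 per 100 TPM of these collagens in day 3 grafts, 5.83 ± 1.19 in day 7 grafts and 6.17 ± 0.485 in controls. The lysyl hydroxylases held 4.89 ± 1.65, 2.96 ± 0.508 and 11.6 ± 3.95 in the same order, and the prolyl 4-hydroxylase alpha subunits 4.54 ± 1.07, 2.73 ± 0.770 and 3.63 ± 0.878.

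**Figure D4:**
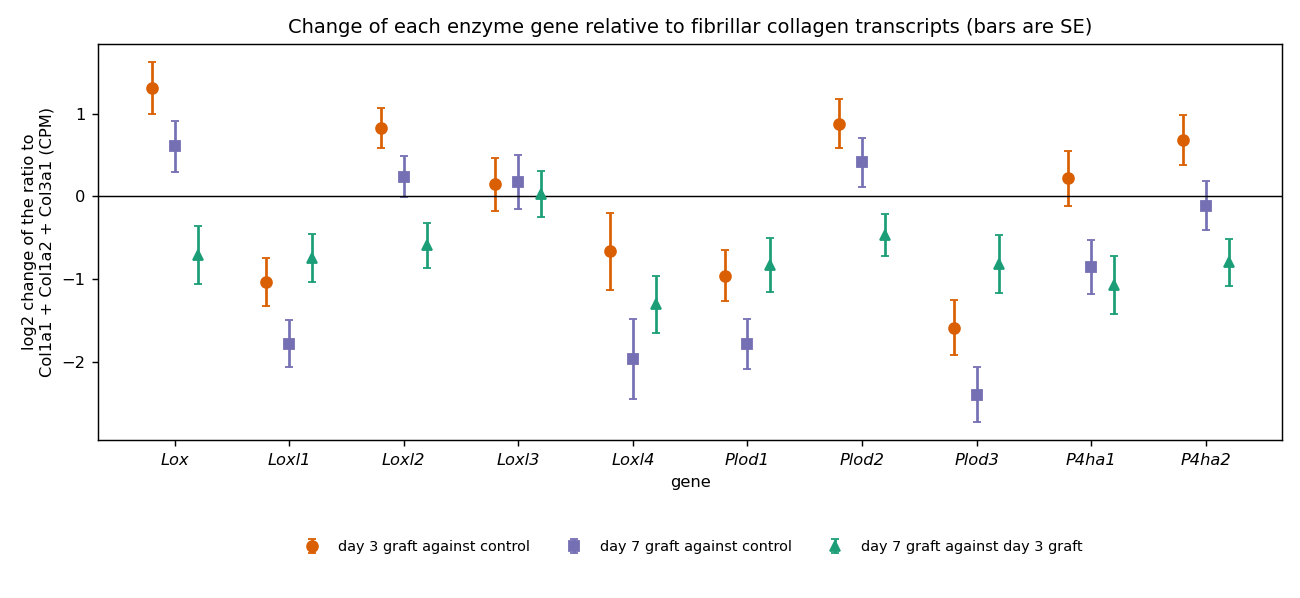
Log2 change of each enzyme gene relative to the summed CPM of Col1a1, Col1a2 and Col3a1 (y axis) in day 3 grafts against controls (circles), day 7 grafts against controls (squares) and day 7 grafts against day 3 grafts (triangles); bars are standard errors from limma. Lox, Loxl2, Loxl3, Plod2, P4ha1 and P4ha2 lie above 0 at day 3, and Loxl1, Loxl4, Plod1 and Plod3 below it at both days. The triangles lie below 0 for all genes but Loxl3, which is at 0.03.

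Other genes of collagen modification in the endoplasmic reticulum moved with the members. Of 22 listed and tested, 17 rose and 5 did not pass in day 3 grafts against controls. The counts were the same in day 7 grafts. Medians were 1.499 and 1.70 against -0.02 and 0.03 for all genes, of which 30.1% and 32.2% were called higher. P4ha3, the remaining alpha subunit gene, had the largest change of the list, 5.62 ± 0.92, adjusted p = 0.000117 at day 3 and 6.90 ± 0.91, adjusted p = 1.69e-05 at day 7 by limma. Its level was 28.2, 20.5, 11.3, 20.8 and 31.4 CPM in day 3 grafts 1 to 5, 63.9, 51.7, 61.6, 54.5 and 32.98 CPM in day 7 grafts 1 to 5, and 0.891, 0.348, 0.452, 0 and 5.35 CPM in controls 1 to 5. All grafts were above all controls; control 4 had no count and control 5 most of the control signal. P4hb, the protein disulfide isomerase that forms the beta subunit of prolyl 4-hydroxylase, rose by 2.20 ± 0.20, adjusted p = 8.55e-07 at day 3 and 2.08 ± 0.20, adjusted p = 1.19e-06 at day 7, less than its catalytic partners. There were 2.19 ± 0.257 TPM of P4hb per TPM of the alpha subunits in day 3 grafts and 2.50 ± 0.480 in day 7 grafts, against 5.89 ± 1.44 in controls, without overlap of grafts and controls. Fkbp10, a collagen chaperone that also serves Plod2, rose by 3.15 ± 0.23 and 3.50 ± 0.23, the oxidase Ero1a by 3.06 ± 0.39 and 2.09 ± 0.37, and Creb3l1, a transcription factor of collagen secretion, by 2.41 ± 0.32 and 2.78 ± 0.32. The smallest called rises were those of the export receptor Mia3 (0.34 ± 0.09 and 0.47 ± 0.09), the galactosyltransferase Colgalt1 (1.14 ± 0.11 and 1.27 ± 0.11) and the chaperone Hspa5 (1.20 ± 0.22 and 1.23 ± 0.22). In day 7 against day 3 grafts 0 of the 22 passed in the limma fit, where 4.88% of all genes did. Without the 5 libraries P4ha3 changed by 4.87 at day 3 and 6.40 at day 7, and Creb3l1 by 3.05 and 3.33.

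Of 19 tested genes for procollagen processing, activation of LOX enzymes and other cross-linking, 13 rose, 1 fell and 5 did not pass at day 3, and 16 rose, 1 fell and 2 did not pass at day 7. Beside these, 30.1% and 32.2% of all genes were called higher at days 3 and 7. Efemp2, a fibulin that binds lysyl oxidase and carries it to elastic fibres, rose by 3.40 ± 0.31 and 3.07 ± 0.31, and Fn1, fibronectin, by 3.14 ± 0.34 and 3.42 ± 0.34. Postn, periostin, which helps the activation of lysyl oxidase by Bmp1, rose by 2.90 ± 0.45 and 4.82 ± 0.49. Bmp1, the protease that frees lysyl oxidase from its propeptide, is named outside the rule after its values were seen, and rose by 2.52 ± 0.30, adjusted p = 7.15e-06 and 2.88 ± 0.30, adjusted p = 2.29e-06 by limma. Among copper supply genes, Atp7a, the pump that loads copper into the secretory pathway, is likewise named after its values were seen and rose by 1.81 ± 0.37 and 1.79 ± 0.37. The copper importer Slc31a1 rose by 1.01 ± 0.19 and 1.23 ± 0.19, and the copper chaperone Atox1 had 0.29 ± 0.14, adjusted p = 0.0816 at day 3 and 0.36 ± 0.14, adjusted p = 0.0334 at day 7. Fmod, fibromodulin, a proteoglycan that guides where lysyl oxidase cross-links collagen, fell at day 3 (-4.22 ± 1.21, adjusted p = 0.00753) and rose at day 7 (2.29 ± 0.60, adjusted p = 0.00403). Its mean was 0.339 ± 0.0852 CPM in day 3 grafts and 37.4 ± 20.4 CPM in day 7 grafts, against 8.81 ± 5.31 CPM in controls, and the difference of day 7 to day 3 grafts was 6.51 ± 1.14, adjusted p = 0.00704. Fbln5, an elastic fibre protein, rose by 1.09 ± 0.31 at day 3, and Pcolce2, a procollagen proteinase enhancer, fell at day 7 (-1.36 ± 0.47, adjusted p = 0.0216). Without the 5 libraries the day 3 changes were larger in size for Fn1 (3.83), Bmp1 (3.11), Fbln5 (1.64) and Fmod (-5.15), and smaller for Atp7a (1.64).

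**Figure D5:**
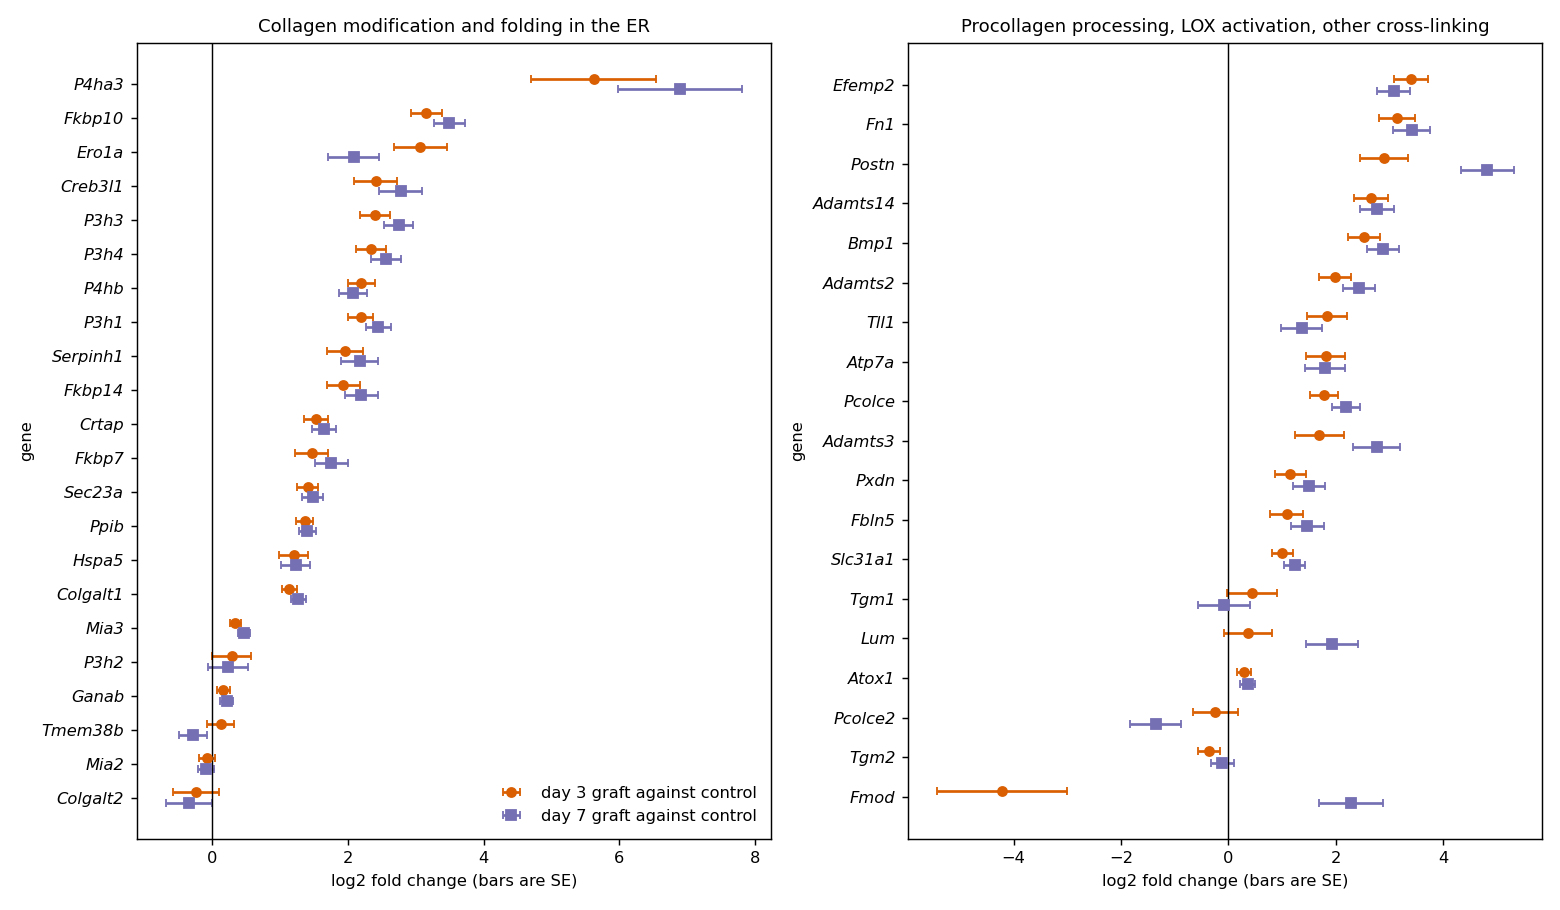
Log2 fold change (x axis, limma-voom; bars are standard errors) of the other collagen modifying and folding genes (left) and of genes for procollagen processing, activation of LOX enzymes and other cross-linking (right) in day 3 grafts against controls (circles) and day 7 grafts against controls (squares). P4ha3 has the largest change of the left panel at both days, and Fmod in the right panel is at -4.22 at day 3 and 2.29 at day 7.

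Among the substrates, 14 of 16 collagen chain and elastin genes rose, 1 fell and 1 did not pass at day 3, and 15 rose and 1 did not pass at day 7. Shares called higher over all genes were 30.1% and 32.2%. Col12a1, a collagen on the fibril surface, rose most (4.30 ± 0.29 and 6.01 ± 0.31), whereas the basement membrane chains Col4a1 (0.88 ± 0.31 and 1.20 ± 0.31) and Col4a2 (0.93 ± 0.29 and 1.17 ± 0.30) rose least among those called at day 3. Eln, elastin, the other substrate of LOX enzymes, fell at day 3 (-1.45 ± 0.42, adjusted p = 0.00865) and had 0.58 ± 0.43, adjusted p = 0.253 at day 7. In day 7 against day 3 grafts 4 of the 16 rose by limma, where 4.88% of all genes passed in either direction. They were Eln (2.02 ± 0.43), Col12a1 (1.71 ± 0.31), Col6a1 (1.28 ± 0.33) and Col18a1 (1.19 ± 0.31). In the fit without the 5 libraries 10 of the 16 rose in that comparison, where 19.9% of all genes passed in either direction. Of 10 tested genes for the supply of ascorbate, iron and 2-oxoglutarate, 5 rose, 2 fell and 3 did not pass at day 3, and 5 rose, 1 fell and 4 did not pass at day 7. Their median changes were 0.31 and 0.23. Over all 16051 genes tested, 4832 rose and 4856 fell at day 3, and 5170 rose and 4566 fell at day 7. The ferritin chains Ftl1 (1.90 ± 0.21 and 2.03 ± 0.21) and Fth1 (1.01 ± 0.25 and 1.35 ± 0.26) and the ascorbate transporter Slc23a2 (0.93 ± 0.17 and 0.85 ± 0.17) rose, and Ogdh, an enzyme that consumes 2-oxoglutarate, fell (-1.64 ± 0.18 and -1.53 ± 0.18). The transferrin receptor Tfrc fell at day 3 (-0.64 ± 0.25, adjusted p = 0.0368).

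Lox, Plod2, P4ha1 and P4ha2 are known targets of hypoxia-inducible factors, so 16 other hypoxia response genes were measured beside them. At day 3, 11 rose and 5 did not pass, with a median of 1.84, and at day 7, 10 rose, 1 fell and 5 did not pass, with a median of 1.51. All genes had medians of -0.02 and 0.03, and 30.1% and 32.2% of them were called higher. Egln3, a prolyl hydroxylase of the factor itself, changed by 4.15 ± 0.69 and 2.92 ± 0.68, Ankrd37 by 3.92 ± 0.68 and 2.46 ± 0.70, the glucose transporter Slc2a1 by 3.48 ± 0.45 and 2.46 ± 0.44, and Car9, a carbonic anhydrase, by 3.23 ± 0.49 and 3.01 ± 0.50. Vegfa, the main vessel growth factor, had -0.27 ± 0.44, adjusted p = 0.606 at day 3 and fell at day 7 (-1.29 ± 0.42, adjusted p = 0.0165). The mean log2 level of the list ran from 6.85 to 7.91 in day 3 grafts, 5.64 to 7.83 in day 7 grafts and 5.34 to 5.79 in controls. Its highest libraries were day 3 graft 4 and day 7 graft 5, and its lowest day 7 graft was graft 2. Day 3 graft 4, day 7 graft 5 and day 7 graft 2 were also the libraries in which most enzyme genes were highest or lowest of their groups by CPM. The lowest day 3 graft on the list, graft 1, was lowest for 1 enzyme gene, and grafts 2 and 3 were each lowest for 4. Between day 7 and day 3 grafts 0 of the 16 passed the limma test with all libraries, where 4.88% of all genes did. Without the 5 libraries 13 fell at day 7, as did 8.84% of all genes. Against controls, 14 of the 16 rose at day 3 in that fit, beside 4207 of 15286 genes. The part of oxygen supply in the enzyme changes was not tested.

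Markers of cell types that make collagen changed in part, and in bulk tissue fewer cells of a type and less RNA per cell cannot be told apart. For this and the marker lists below, 4832 of all 16051 genes tested were higher and 4856 lower at day 3, and 5170 and 4566 at day 7. Of 10 mesenchymal progenitor and fibroblast markers, 5 rose and 5 did not pass at day 3, and 8 rose, 1 fell and 1 did not pass at day 7, with medians of 0.73 and 1.23, below the enzyme medians. Their summed level was 2146 to 4536 CPM in day 3 grafts, 3338 to 4170 CPM in day 7 grafts and 995 to 2731 CPM in controls, with none of the 10 at 0 in any library. Of 6 myofibroblast and smooth muscle markers, 1 rose, 2 fell and 3 did not pass at day 3 and 4 rose at day 7. Their median change was -1.38 at day 3 and 1.84 at day 7. They summed to 99.9 to 203 CPM in day 3 grafts, 289 to 996 CPM in day 7 grafts and 141 to 202 CPM in controls. In day 7 against day 3 grafts 5 of these 6 rose, where 4.88% of all genes passed in either direction. At day 3, 4 of the 6 fell when the 5 libraries were left out, as did 4651 of 15286 genes tested. All 8 macrophage markers rose at both days, with medians of 3.28 and 3.20, near the enzyme medians of 3.31 and 3.15. Their summed levels were 4738 to 11028 CPM in day 3 grafts, 8832 to 12599.9 CPM in day 7 grafts and 1299 to 3561 CPM in controls. Of 6 endothelial markers 4 rose at both days, summing to 426 to 1359.7 CPM in day 3 grafts, 581 to 1097 CPM in day 7 grafts and 412 to 549.7 CPM in controls. Of 5 neutrophil markers 3 did, summing to 70.5 to 423 CPM in day 3 grafts, 151 to 914 CPM in day 7 grafts and 18.9 to 154 CPM in controls. All 6 lymphoid markers fell at both days, with sums of 1.76 to 4.52 CPM in day 3 grafts, 5.50 to 15.2 CPM in day 7 grafts and 94.8 to 1435 CPM in controls. Of 6 skeletal muscle markers 0 passed by limma, summing to 2.09 to 273 CPM in day 3 grafts, 1.43 to 254 CPM in day 7 grafts and 19.2 to 3025 CPM in controls. None of the 5 epithelial markers passed the filter on low counts. The part of these cell types in the enzyme changes was not tested.

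For each member the tested genes with the most similar pattern were found by the root mean square difference of centred log2(CPM + 1) over the 15 libraries, among the 9801 genes that averaged 10 CPM or more and had a named symbol. The closest pair was Plod3 and Adam15, a cell surface metalloprotease gene, at 0.14, followed by Ndel1 at 0.16. Plod1 was nearest to P4hb (0.22) and then to Rhoc (0.23), a small GTPase, and Loxl1 to Lmna (0.23), a nuclear lamin gene, and to Rhoc (0.24). Loxl2 had members as both nearest genes, Plod2 at 0.32 and P4ha2 at 0.34. Lox was nearest to Tmem45a (0.39) and Emp1 (0.41), the loosest match among the 10, and Loxl3 to Tfpi2 (0.28), a protease inhibitor gene, and Csgalnact1 (0.29). Plod2 was nearest to F7 (0.28), coagulation factor VII, and Fbln2 (0.28), a fibulin, and P4ha2 to Tnfrsf23 (0.30) and Armh4 (0.32). P4ha1 was nearest to S100a6 (0.32) and Mcub (0.33), and Loxl4 to Gda (0.24) and Mfsd7a (0.30). The libraries of a group share their condition, so this measure includes the difference between grafts and controls.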

How the data were processed

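Gene-level RNA sequencing values of 15 mouse adipose samples were analysed in 3 groups of 5, taken from the labels. Per the labels' protocols, Trizol and RNeasy were used for extraction, and stranded mRNA libraries were read in pairs of 151 bp. The submitters' processing notes name the build mm10 and, with no role for any, RSEM 1.3.1, STAR 2.7.1a and cutadapt 2.8, while the annotation release and the strand setting of the counting are not given in the sources used here.

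For every gene and sample the authors deposited RPKM, TPM and estimated count values, in 45 columns that were all mapped to samples. The deposited estimated counts are whole numbers with no scaling and carry digit separators in the file, which were removed on reading. They were tested with limma-voom, and a quasi-likelihood count test was not used. Deposited TPM values, scaled by the authors to transcript length and library, served for levels between genes, shares within families and alternative fits; deposited RPKM values served only as an alternative for shares.

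Library sizes were scaled by TMM (log ratio trim 30%, abundance trim 5%). A gene was kept if 5 or more samples reached 0.389 CPM (10 counts in the median library) and its total was 15 or more counts. One limma 3.58.1 fit of 3 group means in R 4.3.3 over 16051 genes gave two-sided moderated tests with Benjamini-Hochberg adjustment, called below 0.05. The fit relative to collagen subtracted each library's log2 summed CPM of Col1a1, Col1a2 and Col3a1. Pandas 2.3.3 and matplotlib 3.10.9 in Python 3.11.15 gave summaries and figures. The scripts were tested on simulated counts with known changes. Libraries held 17109216 to 31997959 counts; within groups, no pair agreed within sampling noise.

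The members and gene lists were chosen with earlier results of these data known. All members are named in each comparison; of each list, up to 3 called genes with the highest and up to 3 with the lowest change, and always P4ha3, P4hb, Col1a1, Col1a2 and Col3a1; and for each member the 2 genes nearest in pattern. Ero1a was matched through its RefSeq synonym, and where a listed symbol was among the 118 repeated ones, the row with more counts was taken. Alternatives were other scalings, filters, units, weights, a replicate block and left-out libraries. Promoter and protein sequences were not used here.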

Additional observations from a re-analysis of the deposited data

Results flagged for a closer look

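In 3 of 30 groups of 5 levels, and in 2 of 33 groups of 5 family shares, the gap between an end library and its neighbour was more than 0.71 of the group's range, the limit of Dixon's test for 5 samples at 95%; chance sets apart about 1 in 20 groups. Lox stood at 1806 CPM in day 7 graft 5, and the next day 7 graft was at 949 CPM. Loxl3 stood at 33.5 CPM in control 5, and the next control was at 11.4 CPM. Loxl4 stood at 9.62 CPM in the same control, with the next at 3.28 CPM. As shares of the summed TPM of the family, Loxl4 was at 0.534% in day 3 graft 5, below the next day 3 graft at 0.930%, and P4ha2 was at 41.6% in day 7 graft 1, below the next day 7 graft at 47.4%. Without day 7 graft 5 or control 5, and without any other single library, the calls on the log2 fold changes of these genes against controls did not change. Calls relative to collagen did for Lox at day 7, P4ha2 at day 3 and Loxl4 between the days, as given above.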

How the results depend on the processing

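Against controls, all 10 members were called higher at day 3 and at day 7 under every one of the 27 alternatives, 15 of which left out 1 library each. In day 7 against day 3 grafts, members called numbered 0 in the main fit, 0 without any single library, 4 with sample quality weights and 3 without control 2, control 4, control 5, day 3 graft 1 and day 7 graft 5. The count over all genes in that comparison, 784, was 1395 with only the 2 groups in the fit, 3668 with quality weights, 3037 without the 5 libraries and 321 to 1525 with 1 library left out, the highest being without control 4 and then without day 7 graft 5 (1489); the cause was not tested. Of the genes called there, 65.1% were higher in the main fit and 53.4% with only the 2 groups. Members called relative to collagen numbered 6 to 7 at day 3, 4 to 6 at day 7 and 0 to 1 between the days with 1 library left out, against 7, 5 and 0, and without the 5 libraries, an alternative chosen after seeing the data, they were 5, 5 and 7; the cause was not tested.

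Signs changed only for values near 0. In day 7 against day 3 grafts, Loxl2 was at 0.015 on log2(TPM + 1), 0.016 on log2(TPM + 0.1) and -0.17 to 0.048 with 1 library left out, against -0.09; Plod2 was at -0.054 with quality weights, -0.064 without the 5 libraries and -0.065 to 0.13 with 1 library left out, against 0.035. Relative to collagen, P4ha2 at day 7 was at 0.11 with Col3a1 alone and at -0.29 to 0.032 with 1 library left out, against -0.11. Loxl3 on that scale was at -0.012 at day 3 without the 5 libraries and ran from -0.082 to 0.26 at day 3, -0.052 to 0.32 at day 7 and -0.13 to 0.18 between the days.

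Replicate numbers are shared by the groups, and libraries of the same number deviated together with correlations of -0.18 to 0.34. The labels do not say whether they are paired, and these correlations over 5 libraries per group cannot decide it. With the number as a replicate block, members called were 10, 10 and 0, and all genes called were 9726, 9725 and 659, against 9688, 9736 and 784; the block changed no call of a member, in the fit relative to collagen either. Median-of-ratios, upper quartile and library-total scaling changed no member's direction. On TPM the median of all genes against controls moved to 0.22 and 0.28 at day 3 and 0.33 and 0.43 at day 7, by pseudocounts of 1 and 0.1, and 68% and 68.5% of calls at day 3 and 74.1% and 74.7% at day 7 were higher, against 49.9% and 53.1%. Leaving out the filter put that median at -0.18 at day 3. Between the days, 19.9% of all genes were called without the 5 libraries, against 4.88% with all libraries. In the lists, these calls numbered 3 against 0 of 22 for collagen modification, 5 against 1 of 19 for processing and LOX activation and 2 against 0 of 10 for cofactor supply. They numbered 10 against 4 of 16 for substrates, 13 against 0 of 16 for hypoxia and 5 against 3 of 10 for fibroblast markers. At day 3, 2 of 5 tested skeletal muscle markers fell without the 5 libraries, beside 4651 of 15286 genes, against 0 of 6 with all libraries. Family shares moved by less than 1 SD without the 5 libraries; RPKM gives the same shares as TPM by construction, apart from rounding. Depth limits mainly Loxl4, with as few as 25 counts in a control.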
